A study of Mus musculus with 2 samples.

Results

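The genes described here are the ligands and receptors of the tumor necrosis factor (TNF) superfamily, with the receptor *Tnfrsf12a* and its ligand *Tnfsf12* set against the rest. They were taken from an mRNA-seq table of mouse jejunal muscle as every symbol beginning with Tnfrsf or Tnfsf, together with *Tnf*, *Lta*, *Ltb*, *Ltbr*, *Fas*, *Fasl*, *Cd40*, *Cd27* and *Ngfr*. This gave 39 of the 18159 genes in the table. There were 15 ligand entries, 1 of them a readthrough of *Tnfsf12* and *Tnfsf13*, and 24 receptors. RNA came from the tunica muscularis, the muscle wall left after the mucosa is peeled from the jejunum, of C57BL/6 mice at 15 days of age. The study asked how loss of the maintenance DNA methyltransferase DNMT1 alters smooth muscle cells (SMCs) and their gene expression. The *Dnmt1*-WT and *Dnmt1*-KO groups were represented by 1 mRNA library each, made from mice of both sexes. How the RNA of several mice was combined into each library is not stated in the sources used here. A Cre-eGFP transgene driven by the *Myh11* promoter acts in SMCs, so that the other cells of the wall keep *Dnmt1* in *Dnmt1*-KO mice. Both samples carry the same strain label, which combines the *Myh11* Cre-eGFP transgene with loxP-flanked *Dnmt1*, and their free text names the knockout in both cases. One of them has *Dnmt1*-WT in its title and genotype label and was taken as such.

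Values are FPKM, that is, fragments per transcript length and per mapped fragment of that library, so that levels of different genes can be set side by side. Replicates are lacking, 1 library standing for each genotype, so no difference could be compared with their spread and no test was made. *Dnmt1* itself was at 11.58 FPKM in *Dnmt1*-WT and 7.58 FPKM in *Dnmt1*-KO, lower in the library labelled knockout. In tissue RNA, fewer cells of a type and less RNA per cell cannot be told apart. The 8 smooth muscle markers on the list used here summed to 16618 FPKM in *Dnmt1*-WT and 12061 FPKM in *Dnmt1*-KO, and all 8 were lower in *Dnmt1*-KO.

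Ligands of the TNF superfamily are mostly trimers on the cell surface or shed from it, and their receptors signal through different routes. Receptors with a death domain recruit adaptors that can lead to caspase activation, and the others bind TRAF adaptors that feed the NF-kB and MAP kinase pathways. Decoy receptors bind a ligand without passing a signal on. TNFRSF12A, also called Fn14, is a small TRAF-binding receptor induced in injured tissue, and TNFSF12, also called TWEAK, is its ligand.

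Of the 39 genes, 34 in *Dnmt1*-WT and 35 in *Dnmt1*-KO had a value above 0, and 18 and 20 of them reached 1 FPKM. Both libraries held a value above 0 for 32 genes. Among these 32, 10 were at least doubled in *Dnmt1*-KO, or 31.2%, against 11.8% of all 16102 genes with a value above 0 in both libraries. At most halved were 4 of the 32, or 12.5%, against 4.98% of all genes. Low values widen the ratios. Adding 1 FPKM to both values keeps the genes listed at 0. At least doubled were then 2 of the 39 members and 859 of all 18159 genes, shares that lie close together. At most halved were then 2 of the 39 members and 298 of all 18159 genes, a larger share of the members. Among the 18 members with a mean of at least 1 FPKM, 3 were at least doubled, or 16.7%, against 7.99% of the 13396 genes at such levels, and 2 were at most halved, or 11.1%, against 3.38%. Among the 14 members with a lower mean, 7 were at least doubled, or 50%, against 30.4%, and 2 were at most halved, or 14.3%, against 12.9%. With the genes listed at 0 in 1 library counted as well, 25 of the 39 members were higher in *Dnmt1*-KO, 12 were lower and 2 were at 0 in both, that is, 64.1% higher and 30.8% lower against 49.9% and 46.5% of all genes.

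**Figure D1:**
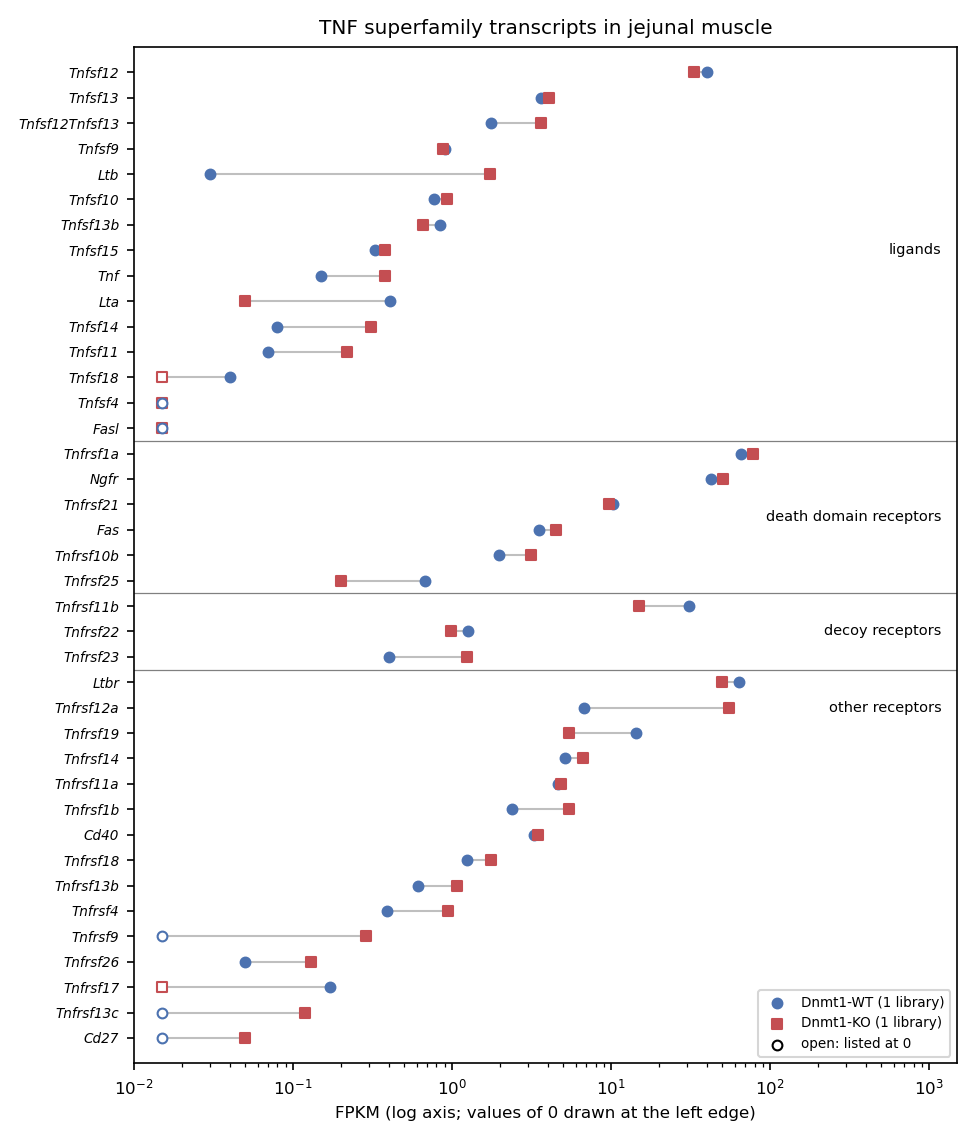
FPKM of each of the 39 genes on a log axis, with circles for the 1 *Dnmt1*-WT library, squares for the 1 *Dnmt1*-KO library, open symbols for values of 0 drawn at the left edge, and genes grouped by role. *Tnfrsf12a* is at 6.73 and 55.43 FPKM, *Tnfrsf11b* at 31.02 and 14.97 FPKM, and *Tnfrsf1a*, the most abundant, at 65.32 and 77.91 FPKM.

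*Tnfrsf12a* was the member whose level differed most in FPKM between the libraries. It was at 6.73 FPKM in *Dnmt1*-WT and 55.43 FPKM in *Dnmt1*-KO, a ratio of 8.24 or 3.04 on the log2 scale. By level it was the 8th member in *Dnmt1*-WT and the 2nd in *Dnmt1*-KO. Its share of the summed FPKM of all receptors was 2.59% in *Dnmt1*-WT and 18.5% in *Dnmt1*-KO. Of the 3565 genes whose mean level lay within 2-fold of its own, 22 had a ratio as high or higher, or 0.617%, and 148 were at least doubled, or 4.15%. The ratio of *Tnfrsf12a* was between 7.30 and 8.41 under every scaling and pseudocount tried.

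*Tnfsf12* did not follow its receptor. The ligand was at 39.96 FPKM in *Dnmt1*-WT and 33.44 FPKM in *Dnmt1*-KO, a ratio of 0.837. It was the 4th member by level in *Dnmt1*-WT and the 5th in *Dnmt1*-KO, and was the most abundant ligand in both. In *Dnmt1*-WT the ligand transcript was 5.94 times the level of the receptor transcript. In *Dnmt1*-KO it was 0.603 times that level, so that the order of the pair was turned.

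*Tnfrsf12a* lies on the minus strand of chromosome 17 in GRCm38, at 23675445 to 23677468, and *Tnfsf12* on the minus strand of chromosome 11, at 69686250 to 69695849. The 250 bases before the RefSeq start of *Tnfrsf12a* (GRCm38.p6, chr17:23677450-23677699, minus strand) are shown because CpG dinucleotides are what DNMT1 acts on. They are written 5′ to 3′ with each CpG in capitals.
Tnfrsf12a: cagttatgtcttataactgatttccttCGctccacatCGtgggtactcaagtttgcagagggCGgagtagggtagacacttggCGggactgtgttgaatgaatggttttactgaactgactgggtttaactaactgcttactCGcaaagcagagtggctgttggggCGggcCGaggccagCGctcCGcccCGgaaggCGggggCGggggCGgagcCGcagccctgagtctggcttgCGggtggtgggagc
This stretch holds 15 CpG, most of them in its 3′ portion, and 27.3% of all 32851 such windows hold as many or more. Methylation was not analysed here, so the count says what could carry the mark and not what did. The primers that the study used to measure *Tnfrsf12a* by qPCR are also shown, because they mark which piece of the transcript that assay reads.
Forward: TCGGGACCGGCAATCA
Reverse: ATCAACACCAAGCCGAATCC
Both primers match exon 1 of the 984-base, 4-exon transcript Tnfrsf12a-201 and enclose 80 bases, at 23677356 to 23677435 of chromosome 17. As annotated, the forward primer matches no other of the 6 transcripts of the gene. The primer pair therefore reads the first exon of this transcript only, whereas FPKM covers the whole transcript. The table lists 1 transcript variant of *Tnfrsf12a* in *Dnmt1*-WT and 2 in *Dnmt1*-KO.

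The genes around *Tnfrsf12a* were read for comparison. Within 100 kb of it, 12 other genes were listed, of which 8 had a mean of at least 1 FPKM. None of the 8 was at least doubled or at most halved, where the shares of 7.99% and 3.38% over genes at such levels would each be less than 1 of 8, and their ratios ran from 0.802 to 1.76 with a median of 1.08. Of the 4 lower genes, *Ccdc64b* was at 0.05 FPKM in *Dnmt1*-WT and 0.24 FPKM in *Dnmt1*-KO and *Mmp25* at 0.05 and 0.19 FPKM, both at least doubled, and *Cldn9* and *Kremen2* were at 0.11 and 0.09 FPKM in *Dnmt1*-WT and listed at 0 in *Dnmt1*-KO. These low neighbours were named outside the rule, with their values known.

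Beside *Tnfrsf12a*, the summed levels of the other members were close. The 37 members without *Tnfrsf12a* and *Tnfsf12* summed to 262.26 FPKM in *Dnmt1*-WT and 256.93 FPKM in *Dnmt1*-KO, a ratio of 0.980. All 39 members summed to 308.95 and 345.8 FPKM. The 24 receptors summed to 259.98 FPKM in *Dnmt1*-WT and 299.13 FPKM in *Dnmt1*-KO, and without *Tnfrsf12a* to 253.25 and 243.7 FPKM. The higher total of the receptors in *Dnmt1*-KO was thus the contribution of 1 gene. The 5 members with the highest mean, *Tnfrsf1a*, *Ltbr*, *Ngfr*, *Tnfsf12* and *Tnfrsf12a*, held 70.7% of the sum in *Dnmt1*-WT and 77.4% of it in *Dnmt1*-KO.

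**Figure D2:**
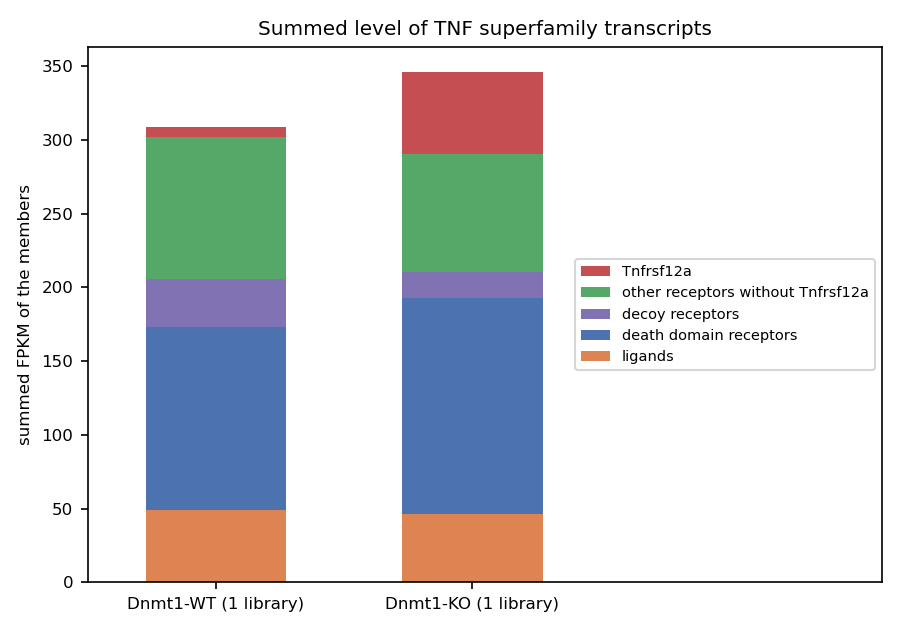
Summed FPKM of the members in the 1 library of each genotype, on an axis from 0, stacked by role with *Tnfrsf12a* drawn on top. The total is 308.95 FPKM in *Dnmt1*-WT and 345.8 FPKM in *Dnmt1*-KO, and *Tnfrsf12a* contributes 6.73 and 55.43 FPKM.

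The remaining ligands were low. *Tnfsf13*, which encodes the B cell factor APRIL, was at 3.64 FPKM in *Dnmt1*-WT and 4.05 FPKM in *Dnmt1*-KO. The *Tnfsf12*-*Tnfsf13* readthrough, whose transcript joins exons of both genes, was at 1.75 and 3.64 FPKM, a ratio of 2.08, or 1.69 with 1 FPKM added to both. It lies on the minus strand of chromosome 11 at 69682577 to 69696098 and shares 731 exon bases with *Tnfsf12* and 983 with *Tnfsf13*, that is, 48.3% and 60.0% of their exon bases. Fragments from the shared bases can be credited either to the readthrough or to the single gene that shares them, so each of these values is uncertain. The 3 entries together were at 45.35 FPKM in *Dnmt1*-WT and 41.13 FPKM in *Dnmt1*-KO.

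No other ligand reached 2 FPKM in either library. *Ltb*, the membrane subunit of lymphotoxin, was at 0.03 FPKM in *Dnmt1*-WT and 1.73 FPKM in *Dnmt1*-KO. The first of these is the lowest value above 0 in the table, so that the ratio of 57.7 rests on it and was 14.1 with 0.1 FPKM added to both values and 2.65 with 1 FPKM added. *Lta*, the soluble subunit of lymphotoxin and a neighbour of *Ltb* and *Tnf* on chromosome 17, differed the other way, at 0.41 and 0.05 FPKM. *Tnf*, which lies between them and encodes the founding cytokine of the family, was at 0.15 FPKM in *Dnmt1*-WT and 0.38 FPKM in *Dnmt1*-KO. All 3 were low. Among genes within 2-fold of its mean level, 2 of 2210 had a ratio as high as that of *Ltb* or higher, or 0.0905%. For *Lta*, 13 of 1230 had one as low or lower, or 1.06%, and for *Tnf*, 341 of 1330 had one as high or higher, or 25.6%. The *Lta* ratio was 0.122, and it was 0.294 with 0.1 FPKM added to both values and 0.745 with 1 FPKM added. That of *Tnf* was 2.53, and 1.92 and 1.20 with the same amounts added.

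*Tnfsf14*, which encodes the T cell ligand LIGHT, was at 0.08 FPKM in *Dnmt1*-WT and 0.31 FPKM in *Dnmt1*-KO. *Tnfsf11*, which encodes the osteoclast factor RANKL, was at 0.07 and 0.22 FPKM. *Tnfsf10*, which encodes the death ligand TRAIL, was at 0.77 and 0.93 FPKM. These 3 were all higher in *Dnmt1*-KO and all under 1 FPKM. *Tnfsf9*, the 4-1BB ligand, was at 0.90 FPKM in *Dnmt1*-WT and 0.88 FPKM in *Dnmt1*-KO. *Tnfsf13b*, which encodes the B cell factor BAFF, was at 0.84 and 0.66 FPKM, and *Tnfsf15*, which encodes TL1A, was at 0.33 and 0.38 FPKM. *Tnfsf18*, the ligand of the GITR receptor, was at 0.04 FPKM in *Dnmt1*-WT and listed at 0 in *Dnmt1*-KO, and *Fasl* and *Tnfsf4* were listed at 0 in both libraries. By count, 8 of the 15 ligand entries were higher in *Dnmt1*-KO, 5 were lower and 2 were at 0 in both. The ligands summed to 48.97 FPKM in *Dnmt1*-WT and 46.67 FPKM in *Dnmt1*-KO.

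The 6 receptors with a death domain were the most abundant group in both libraries, with a sum of 124.16 FPKM in *Dnmt1*-WT and 146.31 FPKM in *Dnmt1*-KO. None of the 6 was at least doubled, where a share of 11.8%, that of all genes, would be less than 1 of 6. *Tnfrsf1a*, the widely expressed receptor for TNF on chromosome 6 at 125349362 to 125362484 of the plus strand, was the most abundant member in both libraries, at 65.32 FPKM in *Dnmt1*-WT and 77.91 FPKM in *Dnmt1*-KO. *Ngfr*, the low-affinity neurotrophin receptor of nerve and glia on chromosome 11 at 95568818 to 95587735 of the minus strand, was at 42.31 and 50.82 FPKM. Their ratios were 1.19 and 1.20, and 25.7% and 23.8% of the genes within 2-fold of their mean levels had ratios as high or higher.

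*Tnfrsf21*, which encodes death receptor 6, was at 10.32 FPKM in *Dnmt1*-WT and 9.71 FPKM in *Dnmt1*-KO. *Fas*, the receptor for FASL and a trigger of apoptosis, was at 3.55 and 4.54 FPKM. *Tnfrsf10b*, the mouse receptor for TRAIL, was at 1.98 and 3.13 FPKM, a ratio of 1.58. These receptors for FASL and TRAIL were therefore both higher in *Dnmt1*-KO, by less than a doubling. *Tnfrsf25*, the TL1A receptor of lymphocytes, was at 0.68 FPKM in *Dnmt1*-WT and 0.20 FPKM in *Dnmt1*-KO. It was the 1 death domain receptor at most halved, against shares of 4.98% of all genes and 12.9% of those with a mean under 1 FPKM. Its ratio was 0.294, and 0.714 with 1 FPKM added to both values. *Tnfrsf10b* had 3 listed transcript variants in *Dnmt1*-WT and 1 in *Dnmt1*-KO.

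The 3 decoy receptors summed to 32.68 FPKM in *Dnmt1*-WT and 17.2 FPKM in *Dnmt1*-KO. The sum was almost all *Tnfrsf11b*, which encodes osteoprotegerin, a secreted receptor that captures RANKL and TRAIL. *Tnfrsf11b* lies on chromosome 15 at 54250619 to 54278484 of the minus strand and was at 31.02 FPKM in *Dnmt1*-WT and 14.97 FPKM in *Dnmt1*-KO, a ratio of 0.483. Of the 4349 genes within 2-fold of its mean level, 95 had a ratio as low or lower, or 2.18%. Its ligand RANKL was at the low levels given above, so that the *Tnfsf11* level was 0.00226 of the *Tnfrsf11b* level in *Dnmt1*-WT and 0.0147 in *Dnmt1*-KO. The mouse decoy receptors *Tnfrsf22* and *Tnfrsf23*, which lie together on chromosome 7, were at 1.26 and 0.40 FPKM in *Dnmt1*-WT and at 0.98 and 1.25 FPKM in *Dnmt1*-KO. *Tnfrsf26*, which lies beside them and is counted with the other receptors, was at 0.05 FPKM in *Dnmt1*-WT and 0.13 FPKM in *Dnmt1*-KO. The 3 genes are close copies of each other, and fragments may have been divided among them, so their values are uncertain.

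Among the receptors with neither a death domain nor a decoy role, 12 of 15 were higher in *Dnmt1*-KO and 3 were lower. *Ltbr*, the lymphotoxin beta receptor of stromal cells on chromosome 6 at 125306571 to 125313885 of the minus strand, was the most abundant of them in *Dnmt1*-WT, at 64.26 FPKM, and was at 49.97 FPKM in *Dnmt1*-KO. *Ltbr* was at a ratio of 0.778, and *Ltb* was under 2 FPKM in both libraries. *Ltbr* and *Ltb* thus also differed in opposite directions, here with the ligand higher in *Dnmt1*-KO. *Lta*, the other lymphotoxin subunit, was lower in *Dnmt1*-KO, as *Ltbr* was. *Tnfrsf12a* passed *Ltbr* in level in *Dnmt1*-KO.

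*Tnfrsf1b*, the second TNF receptor, found on leukocytes and endothelium, was at 2.38 FPKM in *Dnmt1*-WT and 5.43 FPKM in *Dnmt1*-KO, a ratio of 2.28. It lies on chromosome 4 at 145213463 to 145246870 of the minus strand. Of the 4480 genes within 2-fold of its mean level, 367 had a ratio as high or higher, or 8.19%, so this ratio was less unusual at its level than that of *Tnfrsf12a*. With 1 FPKM added to both values the ratio was 1.90. The 250 bases before its start (RefSeq, GRCm38.p6, chr4:145246871-145247120, minus strand) hold 12 CpG, in capitals, and are shown as those of the other receptor of this level that was at least doubled.
Tnfrsf1b: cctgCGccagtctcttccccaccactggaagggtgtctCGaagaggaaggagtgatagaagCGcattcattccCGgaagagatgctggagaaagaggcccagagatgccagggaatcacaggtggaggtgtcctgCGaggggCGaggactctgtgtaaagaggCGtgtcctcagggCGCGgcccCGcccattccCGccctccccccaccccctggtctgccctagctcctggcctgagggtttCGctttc
Markers of the cells known to carry TNFRSF1B were also higher in *Dnmt1*-KO. All 8 listed leukocyte markers were at least doubled, with a sum of 29.41 FPKM in *Dnmt1*-WT and 98.07 FPKM in *Dnmt1*-KO and none at 0. All 10 listed macrophage markers were higher, with sums of 121.54 and 403.37 FPKM, and all 6 endothelial markers were higher, with sums of 45.4 and 110.45 FPKM. Their part in the result was not tested.

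*Tnfrsf19*, the receptor TROY of progenitor cells and nerve, had the lowest ratio among members with a mean of at least 1 FPKM. It was at 14.29 FPKM in *Dnmt1*-WT and 5.48 FPKM in *Dnmt1*-KO, a ratio of 0.383, and 57 of the 5637 genes within 2-fold of its mean level had a ratio as low or lower, or 1.01%. *Tnfrsf19* lies on chromosome 14 at 60963875 to 61046490 of the minus strand. RefSeq gives it 2 starts, with 8 and 9 CpG in the 250 bases before them. The stretch before the outer start (GRCm38.p6, chr14:61046856-61047105, minus strand) is shown because this gene had the lowest such ratio, with each CpG in capitals. What the CpG have to do with the ratio was not tested.
Tnfrsf19: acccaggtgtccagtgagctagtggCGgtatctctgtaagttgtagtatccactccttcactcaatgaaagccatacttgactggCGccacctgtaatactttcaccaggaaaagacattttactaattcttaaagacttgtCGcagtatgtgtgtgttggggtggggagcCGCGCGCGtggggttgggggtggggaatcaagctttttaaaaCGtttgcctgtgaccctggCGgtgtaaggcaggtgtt
*Tnfrsf19* and *Tnfrsf11b* were the 2 members with a mean of at least 1 FPKM that were at most halved. Enteric glia markers, which could bear on *Tnfrsf19* and *Ngfr*, were higher in *Dnmt1*-KO for 4 of 6, with sums of 73.84 and 103.51 FPKM and none at 0, and the difference was almost all *Gfap*, at 4.78 and 35.36 FPKM. Enteric neuron markers were higher for 5 of 7, with sums of 387.45 and 483.64 FPKM and none at 0, and *Uchl1*, at 227.7 and 283.24 FPKM, and *Vip*, at 37.12 and 80.24 FPKM, made up the difference. The part of these cells in the results was not tested.

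The other receptors of this group with at least 1 FPKM differed by less than a doubling. *Tnfrsf14*, the receptor HVEM for LIGHT, was at 5.11 FPKM in *Dnmt1*-WT and 6.64 FPKM in *Dnmt1*-KO. *Tnfrsf11a*, the RANK receptor for RANKL, was at 4.63 and 4.83 FPKM. *Cd40*, the receptor of antigen-presenting cells for CD40 ligand, was at 3.28 and 3.48 FPKM. Dividing by the FPKM sum of each library turned the small differences of *Tnfrsf11a* and *Cd40*, to ratios of 0.973 and 0.989. *Tnfrsf18*, the GITR receptor of T cells, was at 1.24 FPKM in *Dnmt1*-WT and 1.75 FPKM in *Dnmt1*-KO.

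Receptors of lymphocytes were near the bottom of the table. *Tnfrsf13b*, the receptor TACI, was at 0.61 FPKM in *Dnmt1*-WT and 1.08 FPKM in *Dnmt1*-KO. *Tnfrsf4*, the receptor OX40, was at 0.39 and 0.94 FPKM, and its ligand gene *Tnfsf4* was at 0 in both. Both receptors were higher in *Dnmt1*-KO. *Tnfrsf9*, *Tnfrsf13c* and *Cd27* were listed at 0 in *Dnmt1*-WT and at 0.29, 0.12 and 0.05 FPKM in *Dnmt1*-KO. *Tnfrsf17*, the plasma cell receptor BCMA, was at 0.17 FPKM in *Dnmt1*-WT and listed at 0 in *Dnmt1*-KO. These values and those of *Ltb*, *Lta*, *Tnfsf14* and *Tnfrsf25* were accompanied by higher T cell and natural killer cell markers. T cell markers were higher in *Dnmt1*-KO for 7 of 7, with sums of 1.06 and 5.76 FPKM and with *Cd3d*, *Cd3e*, *Cd8a* and *Cd2* at 0 in *Dnmt1*-WT. Natural killer cell markers were higher for 5 of 6, with sums of 0.53 and 2.13 FPKM, with *Ncr1*, *Klrb1c*, *Klrk1*, *Gzmb* and *Prf1* at 0 in *Dnmt1*-WT and *Gzmb* at 0 in *Dnmt1*-KO. The part of these cells in the values of these genes was not tested.

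**Figure D3:**
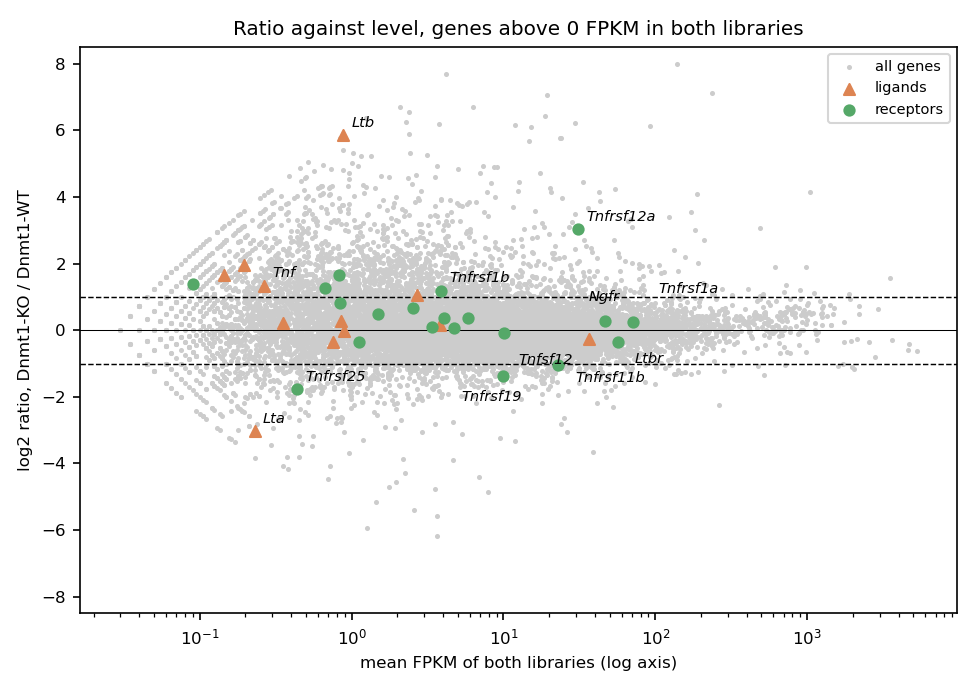
Log2 ratio of *Dnmt1*-KO to *Dnmt1*-WT against the mean FPKM of both libraries on a log axis, for the 16102 genes above 0 in both (grey), with member ligands as triangles, member receptors as circles and dashed lines at a doubling and a halving. *Tnfrsf12a*, at a log2 ratio of 3.04, lies above the abundant receptors around it, and *Ltb* and *Lta* lie at the upper and lower edge of the genes of their level.

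Set beside each other, 4 ligand and receptor pairs had different patterns. *Tnfsf12* and *Tnfrsf12a* had an abundant ligand in both libraries and a receptor that was higher in *Dnmt1*-KO. *Tnf* was low beside *Tnfrsf1a*, its abundant receptor, and only the less abundant *Tnfrsf1b* was at least doubled among the 2 TNF receptors. *Ltb* and *Lta* were low beside *Ltbr*. *Tnfsf11* was low beside *Tnfrsf11a* and *Tnfrsf11b*, and the decoy, but not the signalling receptor, was at most halved. *Tnfrsf12a* was at 0.103 of the *Tnfrsf1a* level in *Dnmt1*-WT and at 0.711 of it in *Dnmt1*-KO.

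Cell types that could carry *Tnfrsf12a* were read from marker lists, and SMCs, the main cells of this tissue, are among them. The 8 smooth muscle markers, all lower in *Dnmt1*-KO, summed to 16618 FPKM in *Dnmt1*-WT and 12061 FPKM in *Dnmt1*-KO. Leukocyte markers summed to 29.41 and 98.07 FPKM, macrophage markers to 121.54 and 403.37 FPKM and endothelial markers to 45.4 and 110.45 FPKM. Fibroblast markers were higher in *Dnmt1*-KO for 4 of 6, with sums of 2726 and 4145 FPKM. Of these markers, *Col1a1* was at 700.41 and 1517.78 FPKM, and *Pdgfra*, which was lower in *Dnmt1*-KO, at 68.95 and 40.72 FPKM. Adipocyte markers were higher for 6 of 6, with sums of 107.18 and 1022 FPKM and *Lep* at 0 in *Dnmt1*-WT, and most of both sums was *Fabp4*, at 103.72 and 874.84 FPKM. Mesothelial markers were higher for 3 of 5, with sums of 338.05 and 427.27 FPKM, of which *Krt19*, a keratin also of epithelium, was at 96.08 and 188.37 FPKM and made up the difference. Epithelial markers were higher for 5 of 6, with sums of 55.54 and 101.7 FPKM. No marker of the fibroblast, mesothelial and epithelial lists was at 0. The part of any of these cell types in the *Tnfrsf12a* value was not tested.

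The genes through which the receptors signal were read from 4 lists, of which the levels below are FPKM and the medians are log2 ratios of FPKM + 0.1. The median over the 39 members was 0.25, against 0.00 over all genes. The 21 signalling adaptors, which include TRAF proteins, death domain adaptors, caspase and ubiquitin regulators and necroptosis kinases, had a median of 0.26. Of the 21, 14 were higher in *Dnmt1*-KO and 7 lower, 2 were at least doubled, or 9.52%, and none was at most halved. This share is near the 11.8% of all genes and the 7.99% of genes with a mean of at least 1 FPKM. The highest ratio was that of *Ripk3*, a kinase of necroptosis, at 1.25 FPKM in *Dnmt1*-WT and 3.64 FPKM in *Dnmt1*-KO, and the other gene at least doubled was *Mlkl*, which acts in the same process, at 1.10 and 2.86 FPKM. The lowest was that of *Birc2*, an inhibitor of apoptosis that binds TRAF2, at 9.97 and 7.81 FPKM. *Mlkl* falls outside the rule for named genes and was chosen after its value was seen.

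The 13 NF-kB core genes, the subunits with the kinases and adaptors that release them, had a median of 0.08, and none was at least doubled or at most halved, in a list so short that the shares of 7.99% and 3.38% over genes with a mean of at least 1 FPKM leave few to find. Dividing by the FPKM sum turned this median to -0.02. *Relb*, a subunit of the noncanonical pathway, had the highest ratio, at 4.95 FPKM in *Dnmt1*-WT and 7.59 FPKM in *Dnmt1*-KO. *Tab3*, an adaptor of the kinase TAK1, had the lowest, at 2.83 and 2.00 FPKM. The 17 genes known to respond to NF-kB had a median of 0.93, with 15 higher and 2 lower in *Dnmt1*-KO. At least doubled were 9 of the 16 above 0 in both libraries, or 56.2%, a share to be read against the 11.8% of all genes. At most halved was 1 of the 16, or 6.25% against 4.98%, the cytokine *Il6*, at 0.27 and 0.10 FPKM. The chemokine *Ccl5* had the highest ratio, at 0.16 FPKM in *Dnmt1*-WT and 6.12 FPKM in *Dnmt1*-KO, and the mitochondrial superoxide dismutase *Sod2* the lowest among those with a mean of at least 1 FPKM, at 38.62 and 26.16 FPKM. Several of these response genes, *Ccl5* included, are also made by leukocytes, whose markers were higher in *Dnmt1*-KO as given above, and the part of leukocytes in this median was not tested.

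The 5 genes that cleave or process the ligands had a median of -0.07. *Rhbdf2*, which carries the TNF convertase to the cell surface and is abundant in myeloid cells, was at 1.65 FPKM in *Dnmt1*-WT and 4.84 FPKM in *Dnmt1*-KO. *Furin*, the protease that releases TWEAK, APRIL and BAFF, was at 36.06 and 31.09 FPKM.

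**Figure D4:**
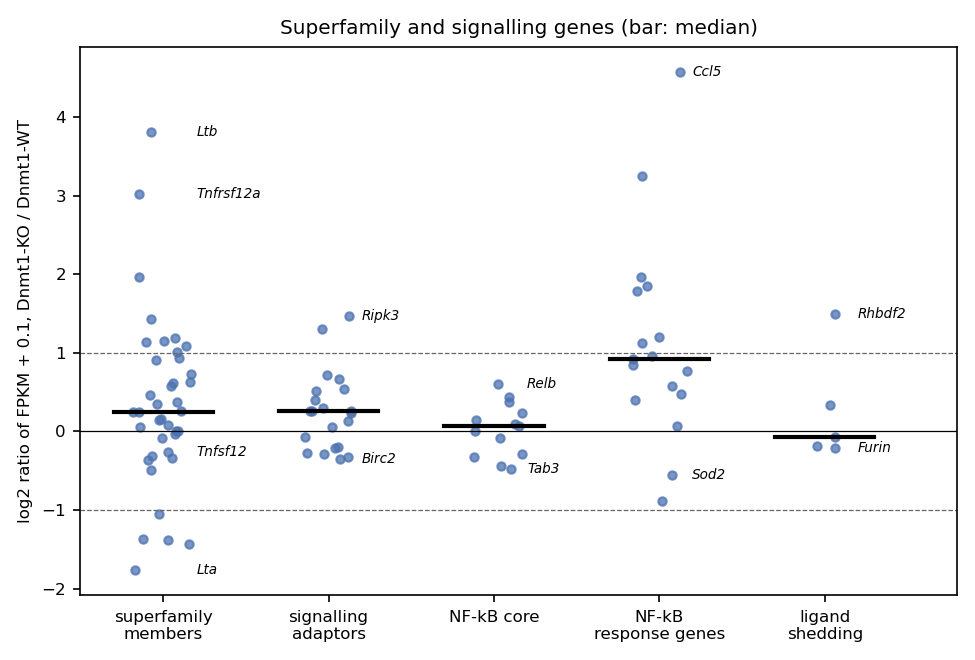
Log2 ratio of FPKM + 0.1, *Dnmt1*-KO to *Dnmt1*-WT, for each gene of the superfamily and of 4 signalling lists, with a bar at each list's median and dashed lines at a doubling and a halving. The medians are 0.25 for the members, 0.26 for adaptors, 0.08 for the NF-kB core, 0.93 for NF-kB response genes and -0.07 for ligand shedding.

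Upstream sequence was available for 31 of the 39 members, in 35 windows of 250 bases. No entry was given for *Tnfrsf10b*, *Tnfrsf11b*, *Tnfrsf22*, *Tnfrsf26*, *Tnfsf4*, *Tnfsf9*, *Tnfsf12* and *Cd40*. The members' windows held from 2 to 31 CpG with a median of 7, against a median of 6 over the 32851 windows of 27025 genes. The most CpG lay before *Tnfrsf11a*, with 31, *Ltbr*, with 18, *Ngfr*, with 16, and *Tnfrsf12a*, with 15. The FPKM ratios of the first 3 were 1.04, 0.778 and 1.20. What CpG number has to do with the ratios was not tested. For a Spearman correlation of CpG number with the log2 ratio, each gene was represented by its window with the most CpG. Over the 13 members with a window and a mean of at least 1 FPKM it was -0.29, and over those with a lower mean -0.37. Both are given as a description of genes measured in the same libraries. Among the low genes, *Tnf* had 10 CpG, *Lta* 9 and *Ltb* 6.

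Motifs were read in the same windows on both strands. An AP-1 site, TGANTCA, was present in 5 of the 35 windows, or 14.3%, against 6.75% of all windows, and lay before *Fas*, *Tnfrsf9*, *Tnfsf13*, *Tnfsf13b* and *Tnfsf14*. The NF-kB motif was present in 2, before *Ltb* and *Tnfrsf9*, or 5.71% against 3.90% of all windows. A CArG box, the motif of serum response factor, was present in 1, before *Tnfrsf17*, or 2.86% against 1.47%. None of these motifs was in the window of *Tnfrsf12a*, which says only that these letters are not in those 250 bases.

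**Figure D5:**
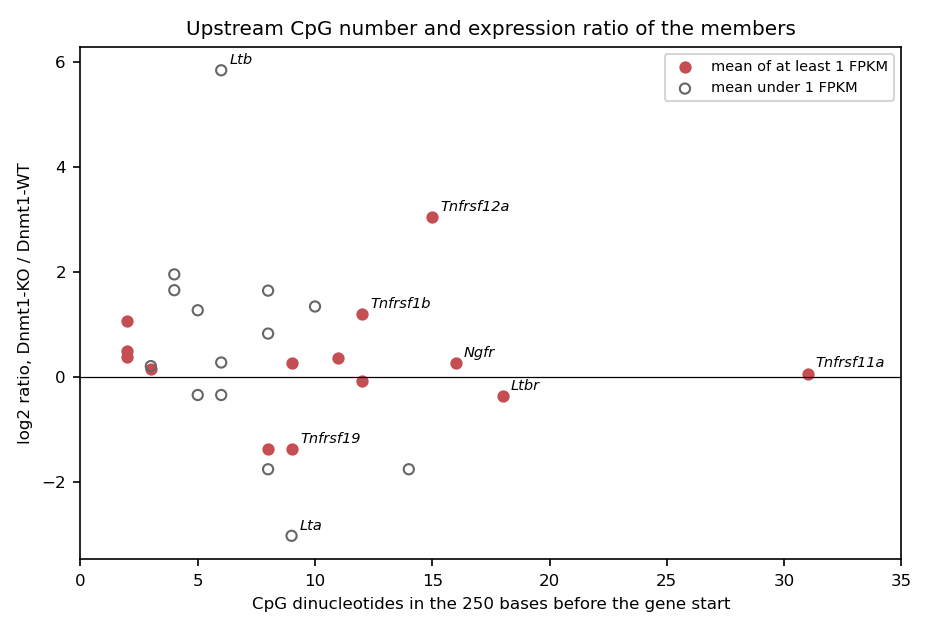
Log2 ratio of *Dnmt1*-KO to *Dnmt1*-WT against the number of CpG in the 250 bases before each RefSeq start, for members above 0 FPKM in both libraries, filled where the mean was at least 1 FPKM; a gene with more than 1 start has more than 1 point. *Tnfrsf12a* lies at 15 CpG and 3.04, and *Tnfrsf11a* at 31 CpG lies near 0.

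Transcript variants, which the table counts for each gene and library, differed for 10 of the 32 members above 0 in both. *Dnmt1*-KO had fewer for 7, or 21.9%, against 13.6% of all 16102 such genes, and more for 3, or 9.38%, against 12.5%. The 3 with more were *Tnfrsf12a*, the *Tnfsf12*-*Tnfsf13* readthrough and *Tnfrsf23*, each with 1 in *Dnmt1*-WT and 2 in *Dnmt1*-KO. The table gives the number of variants only, so the variants themselves were not identified here.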

How the data were processed

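The authors deposited 1 table of FPKM per gene, beside a count of transcript variants per gene and library and their own ratio of *Dnmt1*-KO to *Dnmt1*-WT, which was not used. The submitters' processing notes name TopHat 1.4.1, Cufflinks 2.0.2 and mm10; further settings are not given in the sources used here. The deposited FPKM values have 2 decimals, the reads behind a gene are unknown, so values carry no interval; 0.03 FPKM was the smallest value listed besides 0. Groups came from the genotype labels.

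The members and lists were chosen with earlier results of these data known. Ratios are plain quotients for genes above 0 FPKM in both libraries, with 2 and 0.5 as limits for at least doubled and at most halved. List medians used the log2 ratio of FPKM + 0.1. Members were named with both values. Those given in full were *Tnfrsf12a*, *Tnfsf12*, members at least doubled or at most halved with a mean of at least 1 FPKM, and the 5 with the highest mean. From each pathway list the genes with the highest and lowest ratio among those with a mean of at least 1 FPKM were named. Positions came from GENCODE release M21 and upstream windows from RefSeq, both on GRCm38, and all 39 symbols were matched. Alternatives covered the fold, the filter, the pseudocount and the scaling. Counting was tested on simulated data. Python 3.11.15, numpy 2.4.6, pandas 2.3.3 and matplotlib 3.10.9 were used.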

Additional observations from a re-analysis of the deposited data

How the results depend on the processing

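No paired analysis was possible because each genotype has 1 library, and for the same reason no library could be left out. Of 192 recomputed ratios of the 32 members above 0 in both libraries, 178 stayed within 1.5 times the reported ratio and none of the called ones changed direction. The 14 others came from adding 0.1 or 1 FPKM and belonged to 9 low genes: *Ltb*, *Lta*, *Tnf*, *Tnfsf11*, *Tnfsf14*, *Tnfrsf4*, *Tnfrsf23*, *Tnfrsf25* and *Tnfrsf26*. The number of members at least doubled went from 10 of 32 to 3 of 18 with a mean of at least 1 FPKM. It was 2 of 39 with 1 FPKM added and 5 of 32 at a fold of 3. The number at most halved went from 4 of 32 to 2 in each of these 3 settings, out of the same numbers. Over all genes, the 1893 of 16102 at least doubled became 1071 of 13396, 859 of 18159 and 1035 of 16102 in those settings. With 1 FPKM added, the shares of members and of all genes at least doubled were thus close. The 802 genes at most halved became 453, 298 and 277, out of the same numbers. At a fold of 1.5, 12 of the 32 members and 3167 of the 16102 genes passed upward, and 4 and 2030 downward. The rank of *Tnfrsf12a* by ratio among the members went from 2, after *Ltb*, to 1 with a mean of at least 1 FPKM and to 1 with 1 FPKM added. Scaling by the median, the upper quartile or the FPKM sum, with or without small RNA genes, shifted log2 ratios by 0.03, 0.03, -0.10 and -0.10. The *Tnfsf12* ratio lay between 0.780 and 0.855 throughout, and the members' median log2 ratio between 0.12 and 0.28. Leaving out the readthrough was chosen after seeing the data.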

Other observations

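Superfamily genes whose symbols fall outside the rule were listed for 5 of the 6 looked for. The ectodysplasin ligand *Eda* was at 2.35 FPKM in *Dnmt1*-WT and 1.49 FPKM in *Dnmt1*-KO, and its receptors differed, *Edar* at 0.84 and 0.26 FPKM and *Eda2r* at 1.07 and 2.01 FPKM. The receptor gene *Relt* was at 0.34 FPKM in *Dnmt1*-WT and 1.39 FPKM in *Dnmt1*-KO, and *Cd70*, the ligand of CD27, was at 0.05 FPKM and listed at 0. Mast cell markers were higher in *Dnmt1*-KO for 4 of 5, with sums of 39.01 and 42.91 FPKM that were almost all *Kit*, a gene also of interstitial cells of Cajal, and with *Mcpt4*, *Tpsb2* and *Cma1* at 0 in *Dnmt1*-WT. Neutrophil markers were higher for 3 of 4, with sums of 0.60 and 3.13 FPKM, with *S100a8* and *Mpo* at 0 in *Dnmt1*-WT and *Mpo* at 0 in *Dnmt1*-KO.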
